A study of Caenorhabditis elegans with 51 samples.

Results

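Transcripts of 8 genes of the mitochondrial unfolded protein response were followed in whole *Caenorhabditis elegans*: *hsp-6*, *hsp-60*, *atfs-1*, *ubl-5*, *dve-1*, *haf-1*, *clpp-1* and *lonp-1*. They were chosen by name, with earlier results of these data known, and 8 of 8 were measured, among 14033 genes in the main experiment and 14596 genes in the *sod-2* experiment. The tables hold 7 of these names, and *lonp-1* is listed there as C34B2.6 and was matched by its gene ID. In this response, mitochondria whose proteins fold poorly signal to the nucleus, which then makes more chaperones and proteases for the mitochondrial matrix. ATFS-1 is the transcription factor at its centre, normally imported into mitochondria and degraded there, and sent to the nucleus when import is poor. *hsp-6* and *hsp-60* are the chaperone genes whose reporters are the usual readout of the response in worms.

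RNA came from synchronized, pre-fertile young adults, whole worms grown at 20 °C on OP50 bacteria. In the main experiment, 3 strains carried mutations of the electron transport chain or its cofactor, with 6 libraries each: *clk-1(qm30)*, in an enzyme of ubiquinone synthesis, *isp-1(qm150)*, in the iron-sulfur protein of complex III, and *nuo-6(qm200)*, in a subunit of complex I. The others were *daf-2(e1370)*, in the insulin-IGF1 receptor (6 libraries), *sod-1* (cytosolic superoxide dismutase), *ctl-1* (catalase) and *prdx-2* (peroxiredoxin) with 3 libraries each, whose alleles are not given in the sources used here, and wild-type N2 worms (6 libraries). The *sod-2* experiment held 6 libraries of *sod-2(ok1030)*, in the main mitochondrial superoxide dismutase, and 6 of N2. Each library is a biological replicate of 1 strain, and every mutant was set against the N2 libraries of its own experiment.

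Summed over the genes measured, libraries held 21434437 to 28805205 reads in the main experiment and 22586580 to 33412986 in the other. The lowest count of any of the 8 genes in any library was 52 reads, for *haf-1* in a *daf-2* library. In its own mutant the *sod-1* transcript had a log2 fold change of -5.09, *prdx-2* of -3.09 and *clk-1* of -1.12, and *sod-2* was at 0 to 0.544 CPM (reads scaled to library size) in *sod-2* worms, against 79.2 to 89.5 CPM in wild-type worms. No such fall was found for *daf-2*, *nuo-6* or *isp-1*, whose transcripts therefore do not test the labels. The *ctl-1* transcript was not lower either, at 1.93 to 2.98 CPM in the libraries labelled *ctl-1*, against 1.78 to 2.80 CPM in wild-type worms. Each wild-type library of the main experiment correlated most closely with a different one of the *sod-2* experiment, with r of 0.984 to 0.993 over 13793 genes, though for replicate 7 the next best r was also 0.984. Whether the 2 wild-type groups share worms is not given in the sources used here.

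Values are CPM as deposited. Fold changes (log2) and 95% intervals are from limma on log2(CPM + 0.5), in which a gene passed the test with a Benjamini-Hochberg adjusted p below 0.05 over all genes of the table. The pseudocount makes the fold change of *haf-1*, the lowest of the genes, somewhat too small. No sequences are printed.

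Per kilobase of exon, the chaperones stood far above the rest in wild-type worms of the main experiment. Mean levels were 369 CPM per kb for *hsp-60*, 329.9 for *hsp-6*, 57.8 for *ubl-5*, 44 for *lonp-1*, 36.6 for *atfs-1*, 32.5 for *clpp-1*, 9.39 for *dve-1* and 1.88 for *haf-1*. In *nuo-6* worms *hsp-6*, at 575 CPM per kb, stood above *hsp-60*, at 262 CPM per kb.

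Of the 8 genes, *hsp-6*, *haf-1* and *clpp-1* were higher in each of the 3 mitochondrial mutants (*nuo-6*, *isp-1* and *clk-1*), and *nuo-6* worms had 2 further changes, a higher *atfs-1* and a lower *hsp-60*. In *daf-2* worms and in the *sod-1*, *ctl-1* and *prdx-2* libraries, *hsp-6*, *haf-1* and *clpp-1* did not pass the test. Over 64 tests of 8 genes in 8 mutants, 18 passed, 12 of them higher and 6 lower. In *nuo-6* worms 4 genes were higher and 1 lower, and 22.5% of all genes were higher and 14% lower. The *isp-1* worms had 3 higher and 0 lower, where 11% of all genes were higher and 10.3% lower. The *clk-1* worms also had 3 higher and 0 lower, where 6% of all genes were higher and 2.27% lower. The median log2 fold change of the 8 genes was 0.33 in *nuo-6*, 0.30 in *isp-1* and 0.26 in *clk-1* worms, beside medians over all genes of 0.02, -0.01 and -0.01. All mutants of the main experiment share the same wild-type libraries, so these comparisons are not independent of each other. The share of all genes higher in each of the 3 mitochondrial mutants was not counted, so no background is given for calls shared by them.

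**Figure D1:**
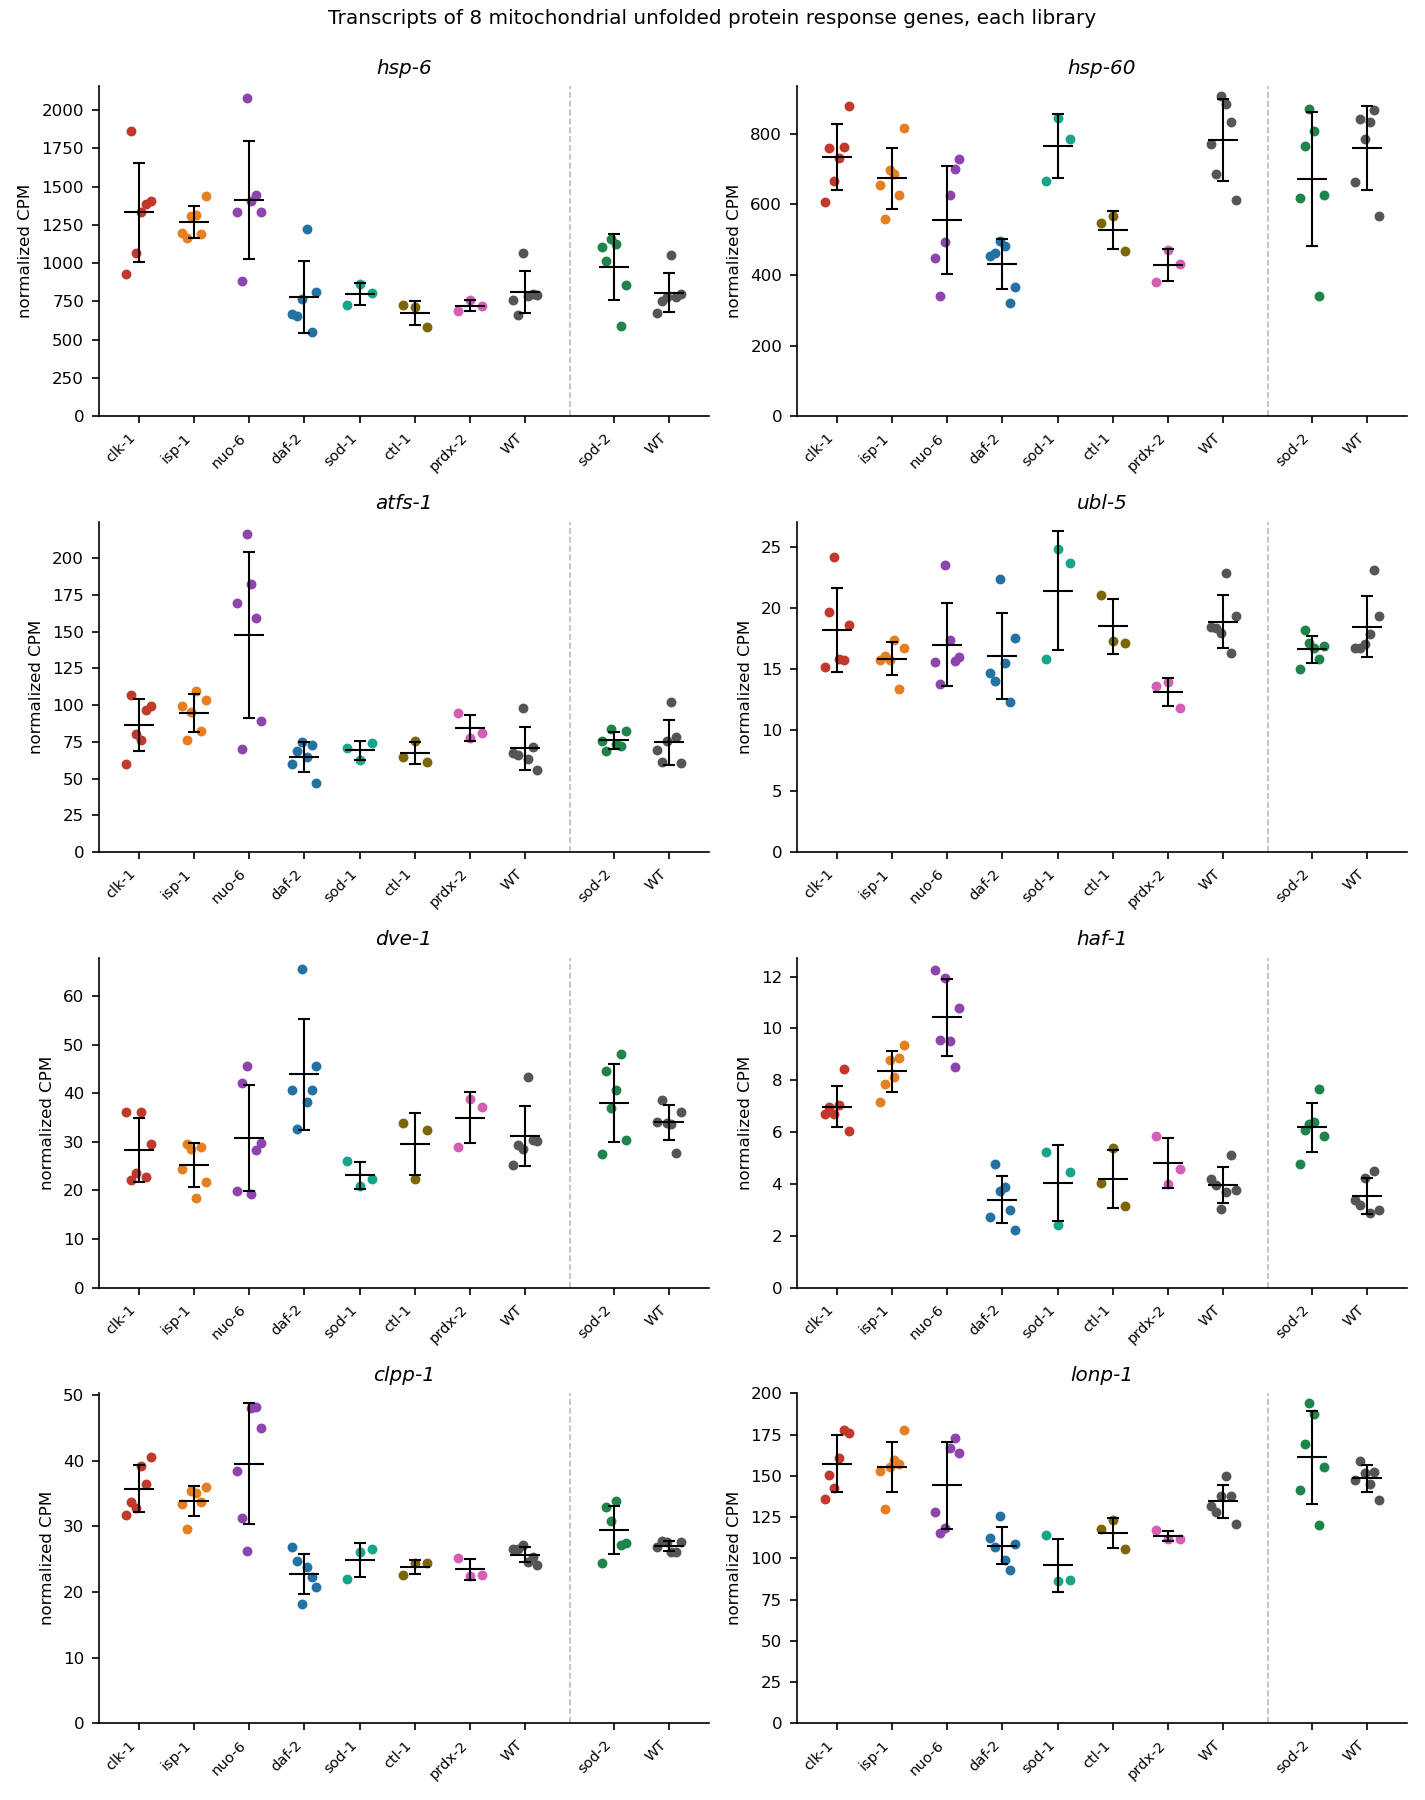
Normalized CPM of each of the 8 genes in every library (points, 1 per library), with the mean and SD of each group (bars), mutants left of their wild type and the *sod-2* experiment to the right of the dashed line. For *haf-1*, the libraries of the 3 mitochondrial mutants lie at 6.06 CPM or above and the wild-type libraries of the main experiment at 5.13 CPM or below, while *hsp-60* is above its wild-type range in none of the main experiment's mutants.

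*hsp-6* encodes the mitochondrial HSP70, which pulls proteins through the inner membrane and folds them in the matrix (chromosome V, 4824124 to 4826760, minus strand, WBcel235). In *clk-1* worms it was at 930.0 to 1867 CPM (median 1361), against 663 to 1065 CPM (median 790.2) in wild-type worms. Of the 6 *clk-1* libraries, 5 lay above every wild-type library. The log2 fold change was 0.69 (95% interval 0.36 to 1.03, adjusted p = 0.0048).

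In *isp-1* worms *hsp-6* was at 1164 to 1442 CPM (median 1253), and the 6 libraries did not overlap the wild type. They were also the most even of the 4 mutants of the main experiment with 6 libraries, with a coefficient of variation of 8.32%, compared with 24.4% in *clk-1*, 27.3% in *nuo-6* and 30.2% in *daf-2* worms. The fold change was 0.66 (0.32 to 0.99, adjusted p = 0.0039).

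In *nuo-6* worms *hsp-6* spread from 882 to 2081 CPM (median 1370), with 5 of 6 libraries above the wild type and replicate 2 within its range. The fold change was 0.77 (0.44 to 1.1, adjusted p = 0.00034). Differences of *hsp-6* between these 3 strains were not detectable: *nuo-6* minus *clk-1* was 0.08 (-0.26 to 0.41), *nuo-6* minus *isp-1* 0.12 (-0.22 to 0.45) and *isp-1* minus *clk-1* -0.04 (-0.37 to 0.30).

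In *daf-2* worms *hsp-6* was at 549.8 to 1221 CPM (median 719), 5 libraries at or below 815 CPM and replicate 4 above every wild-type library. Its fold change was -0.09 (-0.42 to 0.24, adjusted p = 0.70). Set against *daf-2* worms, *hsp-6* was higher by 0.86 in *nuo-6* (adjusted p = 8.9e-05), 0.75 in *isp-1* (0.00054) and 0.79 in *clk-1* worms (0.00032). In these 3 contrasts 31.7%, 37.8% and 37.1% of all genes passed in either direction.

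The 3 *sod-1* libraries had 725, 863 and 806 CPM of *hsp-6*, those labelled *ctl-1* 728, 713 and 585 CPM, and the *prdx-2* libraries 685, 759 and 722 CPM. None lay above the wild-type range and none of the fold changes (-0.01, -0.26 and -0.15) passed the test. In *sod-2* worms *hsp-6* was at 588 to 1159 CPM (median 1059), against 677 to 1050 CPM (median 779) in their wild type, with 3 libraries above the wild type, 1 below it and a fold change of 0.25 (-0.11 to 0.62, adjusted p = 0.45).

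The 8 groups of the main experiment thus fell into the order *nuo-6*, *clk-1*, *isp-1*, wild type, *sod-1*, *daf-2*, *prdx-2*, *ctl-1* for *hsp-6*, and of the 7 pairs of neighbours only *isp-1* and wild type differed. Of 21 pairs of mutants, 12 differed, and these are the pairs of a mitochondrial mutant with one of the other 4.

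*hsp-60* encodes the chaperonin of the matrix, a closed chamber in which proteins fold (chromosome III, 1619742 to 1625803, plus strand). It was not higher in any mutant. In *clk-1* worms it was at 605 to 879 CPM (median 745), against 612 to 906 CPM (median 801) in wild-type worms, and the fold change was -0.09 (-0.38 to 0.20, adjusted p = 0.79). In *isp-1* worms it was at 559.7 to 816 CPM (median 669.9), with a fold change of -0.21 (-0.50 to 0.08, adjusted p = 0.32). The upper bounds of these intervals, 0.20 and 0.08, lie below the lower bounds for *hsp-6* in the same libraries, 0.36 and 0.32.

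In *nuo-6* worms *hsp-60* fell by 0.53 on the log2 scale (interval -0.82 to -0.24, adjusted p = 0.0040). Replicates 1 to 6 had 448, 340.0, 493.1, 626, 699 and 729 CPM, so that replicates 1, 2 and 3 were below every wild-type library and the others within its range. Leaving out any 1 library kept the call, with fold changes from -0.62 to -0.40. *hsp-60* was lower in *nuo-6* than in *clk-1* worms, by 0.44 (adjusted p = 0.026), whereas *nuo-6* minus *isp-1* was -0.32 (-0.61 to -0.02, adjusted p = 0.12).

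The lowest *hsp-60* levels were in *daf-2* and *prdx-2* worms. In *daf-2* worms the libraries had 319 to 495 CPM (median 458), none overlapping the wild type, a fall of 0.87 on the log2 scale (interval -1.16 to -0.58, adjusted p = 1.3e-05). The *prdx-2* libraries had 381, 471 and 431 CPM, also without overlap, and *hsp-60* fell by 0.86 (interval -1.22 to -0.50, adjusted p = 0.0011). In the libraries labelled *ctl-1* it was at 547, 568.1 and 468 CPM, below every wild-type library, but the fold change of -0.56 (-0.92 to -0.20) missed the threshold (adjusted p = 0.084). The *sod-1* libraries, at 667, 846 and 785 CPM, lay within the wild-type range (fold change -0.02, adjusted p = 0.98).

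In *sod-2* worms *hsp-60* was at 341 to 869 CPM (median 696), against 566 to 868 CPM (median 809) in wild-type worms, and the fold change was -0.22 (-0.67 to 0.23, adjusted p = 0.56). The low end was replicate 5, which also had the lowest *hsp-6* of its group. For *hsp-60*, no pair of neighbours differed in the order wild type, *sod-1*, *clk-1*, *isp-1*, *nuo-6*, *ctl-1*, *prdx-2*, *daf-2*, although 8 of 21 pairs of mutants did.

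The 2 chaperones were set against each other within each library, as a description with no test. The ratio of *hsp-6* to *hsp-60* had a median of 2.42 in *nuo-6* (1.83 to 4.22), 1.89 in *isp-1* (1.77 to 2.08), 1.71 in *clk-1* (1.54 to 2.46), 1.64 in *daf-2* (1.42 to 2.53), 1.67 in *prdx-2* (1.61 to 1.80), 1.26 in the libraries labelled *ctl-1* (1.25 to 1.33) and 1.03 in *sod-1* libraries (1.02 to 1.09), against 0.977 in wild-type worms (0.887 to 1.30). The high ratios of *isp-1* and *clk-1* worms came with a high *hsp-6*, those of *daf-2* and *prdx-2* worms with a low *hsp-60*, and that of *nuo-6* worms with both. In the *sod-2* experiment the ratio had a median of 1.38 in *sod-2* worms (1.32 to 1.79) and 1.01 in wild-type worms (0.892 to 1.41).

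**Figure D2:**
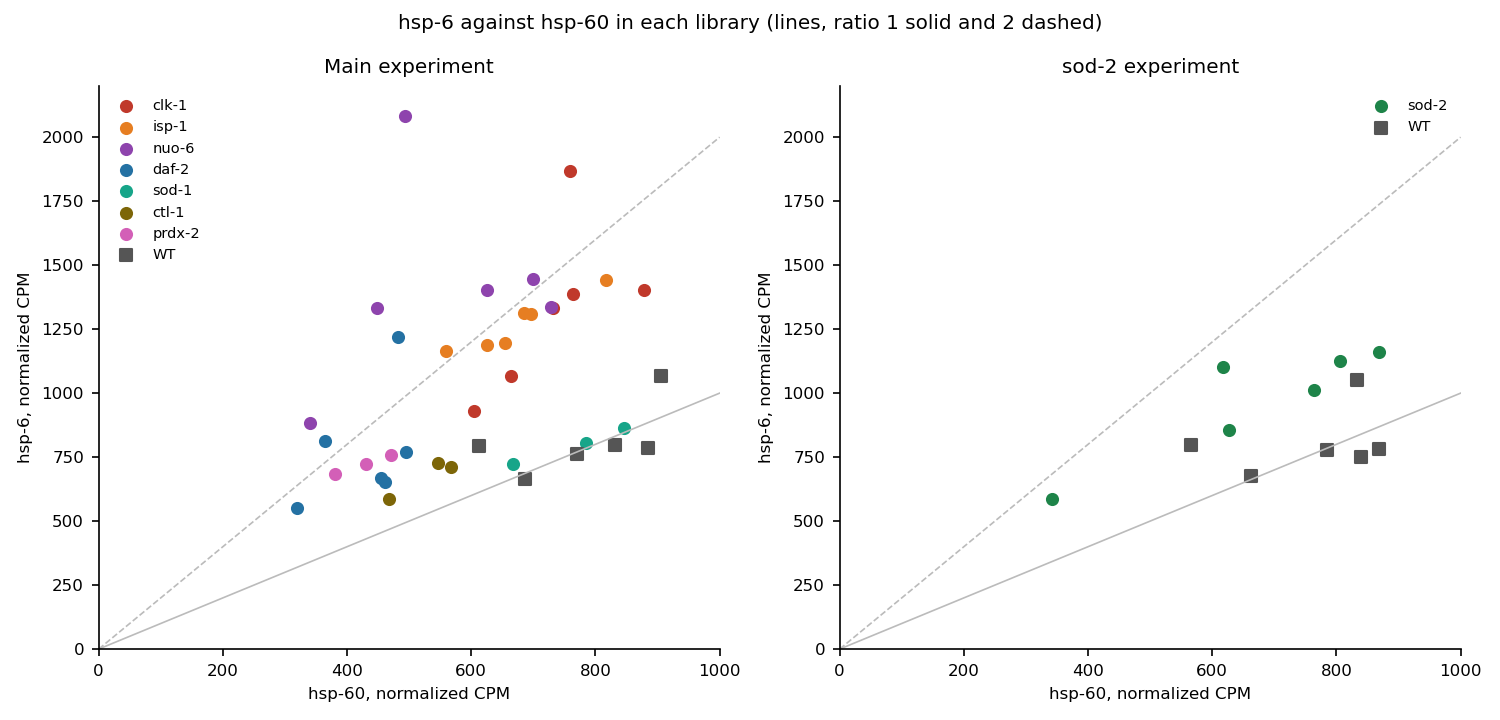
Normalized CPM of *hsp-6* (vertical) against *hsp-60* (horizontal), 1 point per library, circles for mutants and squares for wild type, with lines of ratio 1 (solid) and 2 (dashed), for the main experiment (left) and the *sod-2* experiment (right). The *isp-1* and *clk-1* points lie mostly above the wild type at overlapping *hsp-60*, the *daf-2* and *prdx-2* points lie to its left, and the *nuo-6* points lie at ratios of 1.83 to 4.22, 5 of 6 of them above the wild type and 3 of 6 to its left.

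*atfs-1* encodes the transcription factor of the response (chromosome V, 14193663 to 14197700, plus strand). It was higher in *nuo-6* worms, with 169.8, 70.5, 217, 183, 159 and 89.2 CPM in replicates 1 to 6, against 56.0 to 97.8 CPM (median 67.0) in wild-type worms. Replicates 2 and 6 lay within the wild-type range and the other 4 above it. The fold change was 0.98 (0.60 to 1.36, adjusted p = 8.9e-05).

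In *isp-1* worms *atfs-1* was at 76.5 to 110 CPM (median 97.6), with 3 libraries above the wild type, and its fold change of 0.43 (0.05 to 0.82) did not pass (adjusted p = 0.098). In *clk-1* worms it was at 59.6 to 107 CPM (median 88.2), a fold change of 0.29 (-0.09 to 0.67, adjusted p = 0.40). *atfs-1* was higher in *nuo-6* than in *clk-1* worms by 0.69 (adjusted p = 0.0078) and than in *isp-1* worms by 0.55 (adjusted p = 0.041). In the other 5 mutants its fold changes ran from -0.12 in *daf-2* to 0.28 in *prdx-2* libraries and none passed.

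*dve-1*, a homeodomain factor that acts with ATFS-1 and moves to nuclei under mitochondrial stress (chromosome X, 427035 to 433812, minus strand), was not called in the mitochondrial mutants, where its fold changes were -0.07 in *nuo-6* (-0.45 to 0.31), -0.29 in *isp-1* (-0.68 to 0.09) and -0.14 in *clk-1* worms (-0.52 to 0.24). In *daf-2* worms it was at 32.6 to 65.6 CPM (median 40.7), against 25.2 to 43.3 CPM (median 29.7) in wild-type worms, and only 2 of 6 libraries exceeded the wild type. Its fold change of 0.47 (0.09 to 0.85) was just past the threshold (adjusted p = 0.0486), and the call was lost when any of 9 of the 12 libraries was left out, with adjusted p up to 0.155. In the other 4 mutants its fold changes ran from -0.41 in *sod-1* libraries to 0.17 in *prdx-2* libraries, and none passed.

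*ubl-5*, the ubiquitin-like partner of DVE-1 (chromosome I, 5607826 to 5608841, minus strand), was likewise not called in the 3 mitochondrial mutants, with fold changes of -0.16 in *nuo-6*, -0.24 in *isp-1* and -0.06 in *clk-1* worms. It was called lower in *prdx-2* libraries, which had 13.6, 13.9 and 11.8 CPM, against 16.3 to 22.9 CPM (median 18.4) in wild-type worms. They did not overlap the wild type, and the fold change was -0.51 (-0.84 to -0.18, adjusted p = 0.034). Leaving out any of the 3 *prdx-2* libraries, or wild-type replicate 10, ended that call (adjusted p up to 0.14). In the other 4 mutants its fold changes ran from -0.25 in *daf-2* worms to 0.16 in *sod-1* libraries, and none passed.

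*haf-1*, an ABC transporter of the inner membrane that exports peptides from the matrix (chromosome IV, 17376427 to 17379310, plus strand), had the largest fold change of the 8 genes in each mitochondrial mutant, at low levels. It was at 8.51 to 12.2 CPM (median 10.2) in *nuo-6*, 7.16 to 9.35 CPM (median 8.46) in *isp-1* and 6.06 to 8.42 CPM (median 6.83) in *clk-1* worms, against 3.03 to 5.13 CPM (median 3.87) in wild-type worms. No library of these strains overlapped the wild type. The fold changes were 1.29 in *nuo-6* (0.98 to 1.61, adjusted p = 4.1e-08), 0.997 in *isp-1* (0.68 to 1.31, adjusted p = 1.1e-05) and 0.75 in *clk-1* worms (0.44 to 1.07, adjusted p = 0.00099).

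*haf-1* was higher in *nuo-6* than in *clk-1* worms by 0.54 (adjusted p = 0.011), while *nuo-6* minus *isp-1* was 0.30 (-0.02 to 0.61) and *isp-1* minus *clk-1* 0.24 (-0.07 to 0.56), and neither passed. In *daf-2* worms it was at 2.23 to 4.75 CPM (fold change -0.22, adjusted p = 0.29). The *sod-1*, *ctl-1* and *prdx-2* libraries held 2.41 to 5.87 CPM between them and none was called.

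In *sod-2* worms *haf-1* was the only one of the 8 genes called, at 4.76 to 7.66 CPM (median 6.21), against 2.86 to 4.51 CPM (median 3.28) in their wild type, with no overlap and a fold change of 0.74 (0.43 to 1.04, adjusted p = 0.012). Thus 1 gene was higher and 0 lower in *sod-2* worms, with 2.34% of all genes higher and 0.692% lower. This call did not hold on an earlier count table of the same 12 libraries, where the fold change was 0.60 (edgeR, adjusted p = 0.063), whereas leaving out any 1 library of the later table gave adjusted p of 0.0057 to 0.036. Between the 2 tables the *haf-1* reads were 1029 later and 1024 earlier over the *sod-2* libraries, against 594 later and 682 earlier over the wild-type libraries. For the other 7 genes every library kept 99.7% to 102% of its earlier reads.

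*haf-1* shares 64 exonic bases, 3.04% of its exons, with C30H6.9 on the opposite strand, and whether reads were counted by strand is not given in the sources used here. Of 14053 genes compared, 229 lost reads in the wild-type libraries alone and 0 in the *sod-2* libraries alone (a log2 change below -0.3 in one group and above -0.1 in the other). In the main experiment the 223 of these genes that were measured had a median of -0.04 to 0.13, relative to the wild-type mean, in 38 of 39 libraries and of -0.56 in *clk-1* replicate 3. Without that library the *haf-1* call in *clk-1* worms was kept. C30H6.9 itself did not pass in *nuo-6* (0.17), *isp-1* (0.09), *clk-1* (0.01) or *sod-2* worms (0.02).

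*clpp-1* encodes ClpP, the proteolytic subunit of a matrix protease that makes the peptides HAF-1 exports in worms (chromosome II, 10300714 to 10302842, minus strand). Its level was even among the 6 wild-type libraries (coefficient of variation 4.68%). In *isp-1* worms it was at 29.6 to 36.0 CPM (median 34.4), and in *clk-1* worms at 31.8 to 40.6 CPM (median 35.1), in both cases with no overlap, against 24.2 to 27.2 CPM (median 25.9) in wild-type worms. The fold changes were 0.39 in *isp-1* (0.16 to 0.61, adjusted p = 0.011) and 0.46 in *clk-1* worms (0.24 to 0.69, adjusted p = 0.0052).

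In *nuo-6* worms *clpp-1* had 38.5, 31.2, 26.3, 48.1, 48.3 and 44.9 CPM in replicates 1 to 6, replicate 3 within the wild-type range and the others above it. The fold change was 0.58 (0.35 to 0.80, adjusted p = 8.7e-05). No difference between the 3 mitochondrial mutants passed for *clpp-1*, the widest being *nuo-6* minus *isp-1* at 0.19 (-0.04 to 0.41). In the remaining 5 mutants its fold changes ran from -0.18 in *daf-2* to 0.11 in *sod-2* worms.

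*lonp-1* encodes the Lon protease of the matrix, which degrades damaged proteins and, in worms, imported ATFS-1 (chromosome I, 10676922 to 10682374, minus strand). It was not called in any mitochondrial mutant. In *nuo-6* worms replicates 1 to 6 had 128, 115, 118.5, 167, 173 and 164 CPM, on both sides of the wild-type range of 121 to 150.1 CPM (median 135), with a fold change of 0.08 (adjusted p = 0.55). In *hsp-60*, *clpp-1* and *lonp-1* alike, *nuo-6* replicates 1, 2 and 3 were all below replicates 4, 5 and 6. The *isp-1* worms had 130.0 to 178 CPM (median 156) and a fold change of 0.21 (0.00 to 0.41, adjusted p = 0.14). The *clk-1* worms had 136 to 178 CPM (median 156) and a fold change of 0.22 (0.02 to 0.42, adjusted p = 0.19).

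*lonp-1* was lower in *daf-2* worms, at 93.2 to 125 CPM (median 108), with 5 of 6 libraries below every wild-type library and a fold change of -0.32 (-0.53 to -0.12, adjusted p = 0.012). The 3 *sod-1* libraries had 114, 86.0 and 87.0 CPM, also below the wild type, and a fold change of -0.50 (-0.75 to -0.25, adjusted p = 0.018). That call was lost without *sod-1* replicate 2 or replicate 3 (adjusted p up to 0.29) and when *sod-1* and wild type were fitted alone (adjusted p = 0.20). In the libraries labelled *ctl-1* (-0.22) and in *prdx-2* (-0.24) and *sod-2* worms (0.10) *lonp-1* did not pass.

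**Figure D3:**
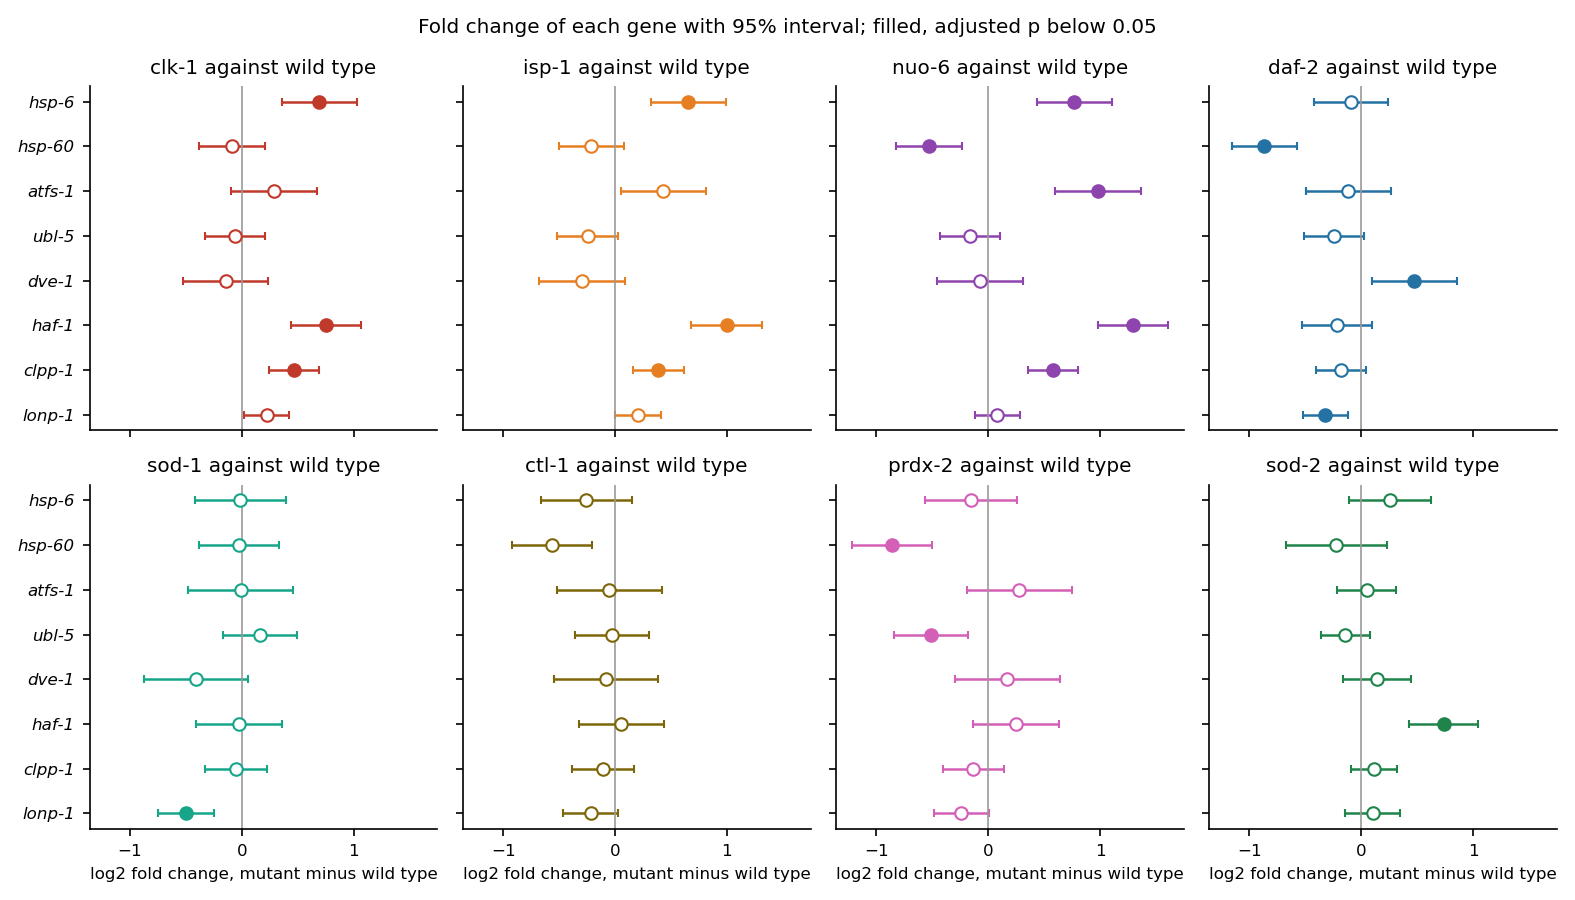
Log2 fold change of each of the 8 genes in each mutant against its own wild type (points) with 95% intervals (bars), filled where the adjusted p is below 0.05. The filled points of *isp-1* and *clk-1* worms are *hsp-6*, *haf-1* and *clpp-1*, *nuo-6* worms have 5 filled points, and the libraries labelled *ctl-1* have none.

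In *daf-2* worms as a whole, 1 of the 8 genes was higher and 2 were lower, beside 17.4% of all genes higher and 16.3% lower, and the median fold change of the 8 was -0.20. In *sod-1* libraries 0 were higher and 1 lower (0.606% and 1.96% of all genes), in those labelled *ctl-1* none (1.05% and 1.57%), and in *prdx-2* libraries 0 were higher and 2 lower (6.51% and 6.51%). In the libraries labelled *ctl-1*, limma gave 1 of the 8 genes an unadjusted p below 0.05, and edgeR and DESeq2 called none either. Between the mitochondrial mutants, 3 of the 8 genes differed in *nuo-6* against *clk-1* (20.1% of all genes), 1 in *nuo-6* against *isp-1* (17.2%) and 0 in *isp-1* against *clk-1* (3.24%).

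Other genes of mitochondrial protein quality control and import were counted beside the 8. Of 14 further mitochondrial chaperones, proteases and prohibitins, 5 were higher and 1 lower in *nuo-6*, 6 higher and 1 lower in *isp-1*, and 2 higher and 0 lower in *clk-1* worms (medians 0.18, 0.18 and 0.21), beside 22.5% of all genes higher in *nuo-6*, 11% in *isp-1* and 6% in *clk-1* worms. *dnj-10*, a J-domain cochaperone of the mitochondrial HSP70, was at 83.1 to 131 CPM in *nuo-6*, 86.5 to 117 CPM in *isp-1* and 75.1 to 98.2 CPM in *clk-1* worms, against 50.1 to 66.4 CPM in wild-type worms. No library overlapped the wild type, and its fold changes were 0.87 (adjusted p = 1.5e-07), 0.68 (2.3e-05) and 0.58 (0.00052) in these strains. *ymel-1*, a protease of the inner membrane, was higher by 0.43 in *nuo-6* (adjusted p = 0.0016), 0.64 in *isp-1* (3.6e-05) and 0.49 in *clk-1* worms (0.0021). *dnj-10* and *ymel-1* were the 2 genes of the list that passed in each of the 3 strains.

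The prohibitin *phb-1* was higher in *nuo-6* (0.54) and *isp-1* worms (0.37) and lower in *daf-2* worms (-0.50). D2030.2 rose by 0.99 in *nuo-6* and 0.60 in *isp-1* worms, and also by 1.12 in *daf-2* and 0.93 in *prdx-2* worms. K07A3.3 was lower in *isp-1* (-0.51) and higher in *daf-2* worms (0.55). In *daf-2* worms 2 of the 14 were higher and 9 lower, with a median of -0.32, beside 17.4% of all genes higher and 16.3% lower.

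Of 18 genes of the import machinery, 7 were higher in *nuo-6*, 3 in *isp-1* and 2 in *clk-1* worms and none was called lower, beside 22.5%, 11% and 6% of all genes higher in these strains. The counts in *isp-1* and *clk-1* worms are near the background, and whether that in *nuo-6* worms exceeds it was not tested. In *daf-2* worms 1 was higher and 12 were lower, beside 17.4% and 16.3% of all genes. *timm-23*, the channel of the inner membrane, was at 124 to 186 CPM in *nuo-6*, 134 to 163 CPM in *isp-1* and 138 to 186 CPM in *clk-1* worms, against 76.5 to 96.6 CPM in wild-type worms, with no overlap. Its fold changes in these strains were 0.97 (adjusted p = 4.9e-08), 0.79 (5.2e-06) and 0.86 (2.0e-06). It was also higher in *sod-2* worms, by 0.43 (adjusted p = 0.032).

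*timm-17B.2*, a paralog of the Tim17 subunit, rose by 1.78 in *nuo-6*, 1.18 in *isp-1* and 1.35 in *clk-1* worms, and by 0.55 in *daf-2* worms. *timm-17B.1* rose in *nuo-6* (0.60) and *isp-1* worms (0.51) and fell in *daf-2* worms (-0.38). In *nuo-6* worms *gop-3*, the outer membrane assembly factor, and *ddp-1*, a small carrier of the intermembrane space, also rose (0.54 and 0.45).

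Of 17 regulators of the response, 4 were higher and 5 lower in *nuo-6* worms, where 22.5% of all genes were higher and 14% lower. None was called by limma in *isp-1* or *clk-1* worms, where 3 and 0 had an unadjusted p below 0.05. Among those higher in *nuo-6* worms were *dlk-1* and *sek-3*, kinases of a MAP kinase cascade (0.89 and 0.61), and *zip-3*, a bZIP factor that represses ATFS-1 (0.72). *ulp-4*, a SUMO protease that acts on DVE-1 and ATFS-1, and *smo-1*, SUMO itself, fell by 0.52 and 0.42. *daf-2* worms had 2 higher and 2 lower of the 17, beside 17.4% of all genes higher and 16.3% lower, so these counts are not above the background. *smo-1* and *ulp-4* were again among the lower ones.

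The largest list medians were those of 12 genes reported to respond to mitochondrial stress. Of these, 11 were higher in *nuo-6*, 9 in *isp-1* and 8 in *clk-1* worms and none was called lower, with medians of 1.84, 1.32 and 0.69, beside 22.5%, 11% and 6% of all genes higher in these strains. In each of the 3 strains the same 7 passed. This list was chosen with earlier results of these data known. It includes *gpd-2*, which the paper names among the genes upregulated in all 3 strains. Its counts and medians therefore describe the list and are not a test. The same list had 8 higher in *daf-2*, 8 in *prdx-2* and 4 in *sod-2* worms, beside 17.4%, 6.51% and 2.34% of all genes. *hsp-6* was not called in these 3 mutants.

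*cyp-14A4*, a cytochrome P450, was at 9.44 to 67.1 CPM in *nuo-6*, 11.6 to 18.0 CPM in *isp-1* and 2.85 to 20.53 CPM in *clk-1* worms, against 0.154 to 0.606 CPM in wild-type worms, with fold changes of 5.27, 4.26 and 3.37. In the same strains *cdr-2*, of the cadmium-responsive family, rose by 2.92, 2.29 and 1.70 and *hrg-9*, a gene of heme homeostasis, by 2.90, 2.25 and 1.70. The antibacterial peptide gene *abf-2* rose by 2.82, 1.85 and 1.42, and by 3.24 in *daf-2* worms.

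The tubulin *tbb-6* rose in *nuo-6* (3.51), *clk-1* (2.59) and *prdx-2* worms (4.69) but ranged widely, at 1.75 to 50.6 CPM in wild-type worms. In *isp-1* worms its fold change was 1.48 (adjusted p = 0.10).

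**Figure D4:**
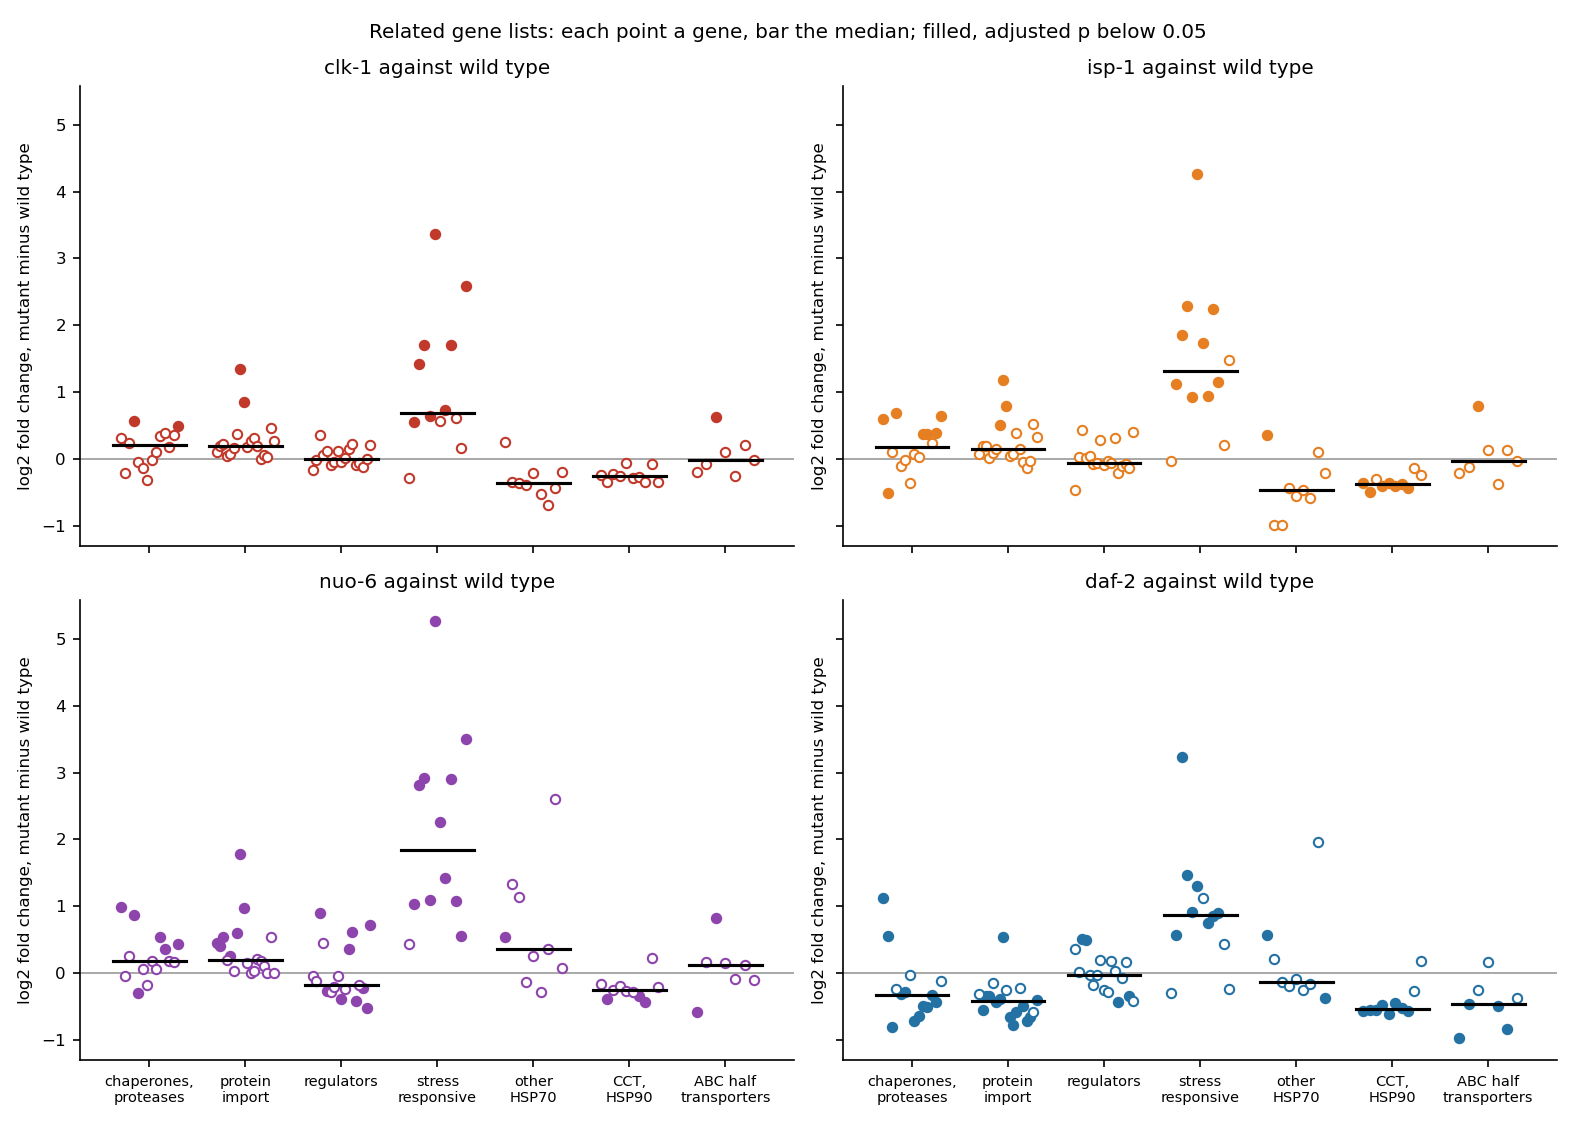
Log2 fold changes against wild type, 1 panel for each mitochondrial mutant and 1 for *daf-2* worms, for 7 lists of related genes (points, 1 per gene, filled where the adjusted p is below 0.05), with the median of each list (bars). The stress-responsive list lies highest in each panel, with medians of 1.84 in *nuo-6*, 1.32 in *isp-1*, 0.69 in *clk-1* and 0.88 in *daf-2* worms, and the chaperone and import lists lie above 0 in the mitochondrial mutants and below 0 in *daf-2* worms. The lists were chosen with earlier results of these data known.

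Of 9 other genes of the HSP70 family, F11F1.1 alone passed in a mitochondrial mutant, in *nuo-6* (0.54) and *isp-1* worms (0.36). In these strains 22.5% and 11% of all genes were higher, so the count is near or below the background. *hsp-1*, the cytosolic HSP70, had fold changes of -0.13 in *nuo-6*, -0.43 in *isp-1* and -0.39 in *clk-1* worms, none of which passed. *hsp-4*, the HSP70 of the endoplasmic reticulum that marks the unfolded protein response there, had 0.36, -0.58 and -0.69 in these strains, and none passed either. It ranged widely, at 442 to 1922 CPM in wild-type and 431 to 2755 CPM in *nuo-6* worms, so a change could have been missed. Of 10 genes of the cytosolic chaperonin CCT and the HSP90 family, 3 were lower in *nuo-6*, 7 in *isp-1* and 8 in *daf-2* worms and none was called higher. Of all genes, 14%, 10.3% and 16.3% were lower in these strains. None was called by limma in *clk-1* worms, where 6 had an unadjusted p below 0.05. *cct-2* had fold changes of -0.39 in *nuo-6*, -0.50 in *isp-1* and -0.55 in *daf-2* worms, and *cct-8* of -0.43, -0.43 and -0.56. *cct-4*, *cct-6* and *cct-7* were also among the 7 that fell in *isp-1* worms (by 0.40, 0.40 and 0.38).

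Of 7 other ABC transporters related to *haf-1*, *haf-3* was higher by 0.82 in *nuo-6* (adjusted p = 8.1e-06), 0.79 in *isp-1* (3.2e-05) and 0.63 in *clk-1* worms (0.0013), and *abtm-1*, a mitochondrial transporter, was lower in *nuo-6* (-0.58) and *daf-2* worms (-0.98). The other 5 were not called in a mitochondrial mutant. In *daf-2* worms, however, 4 of the 7 were lower, *haf-2* (-0.47), *haf-6* (-0.49) and *haf-7* (-0.83) beside *abtm-1*. Of all genes, 22.5% were higher in *nuo-6*, 11% in *isp-1* and 6% in *clk-1* worms, and 14% were lower in *nuo-6* and 16.3% in *daf-2* worms.

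The genes whose levels ran most like *hsp-6* over the 39 libraries of the main experiment were *nft-1*, a nitrilase and Fhit fusion (r = 0.86), E01G4.7 (0.86), *mrps-30*, of the mitochondrial ribosome (0.85), R119.2 (0.85) and F52C9.3 (0.85). Those most like *hsp-60* were Y37E3.10 (0.89), *mnat-1*, a TFIIH subunit (0.88), *mtss-1*, the mitochondrial single-stranded DNA-binding protein (0.87), *fbxa-72* (0.87) and *ugt-47* (0.86). The 2 sets of 5 had no gene in common. The correlations were taken over 13857 genes, and the libraries share groups, so they describe the pattern over strains.

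Within groups, where strain differences are removed, *hsp-60* and *lonp-1* moved together most (r = 0.71 over 39 libraries), followed by *hsp-6* with *atfs-1* (0.57), *hsp-60* with *clpp-1* (0.55) and *hsp-6* with *hsp-60* (0.54), whereas *dve-1* and *clpp-1* moved apart (-0.60). *haf-1* hardly followed *hsp-6* within groups (0.06), though over all libraries the correlation was 0.73. Libraries share their scaling, so part of such a correlation can be common to all genes.

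In whole worms, fewer cells of a type and less RNA per cell cannot be told apart, and summed tissue markers differed between groups, with every marker summed here measured (4 of 4 for the germ line, 6 of 6 for oocytes, eggshell and yolk, 2 of 2 for the hypodermis). The germ line sum was 682 to 1109 CPM in *nuo-6* and 938 to 1246 CPM in *daf-2* worms, against 1084 to 1658 CPM in wild-type worms. The sum for oocytes, eggshell and yolk, mostly *vit-2*, was 5122 to 33204 CPM in *nuo-6*, 2284 to 23883 CPM in *daf-2* and 6254 to 16948 CPM in *prdx-2* worms, against 8600 to 16429 CPM in wild-type worms. In *sod-2* worms it was 805 to 12226 CPM, against 7061 to 16437 CPM in their wild type. In *nuo-6* worms *vit-2* had a fold change of 0.83, which did not pass, whereas *cbd-1* was called lower (-0.77). There *rme-2* (-0.68), *chs-1* (-0.56), *egg-1* (-0.50) and *puf-5* (-0.34) were also negative, none called. In *prdx-2* libraries *vit-2* had -0.68 and the other markers 0.19 (*cbd-1*) to 0.52 (*chs-1*), none called. In *daf-2* and *sod-2* worms every marker of this sum was negative. Of these, *cbd-1* (-0.79) and *rme-2* (-0.83) were called lower in *daf-2* worms, and none was called in *sod-2* worms. The hypodermal sum was 2002 to 4601 CPM in *nuo-6* worms and 248 to 443 CPM in the libraries labelled *ctl-1*, against 1071 to 1511 CPM in wild-type worms. This sum was almost all *col-19*, a collagen of the adult cuticle (fold changes of 1.46 in *nuo-6* and -2.07 in the libraries labelled *ctl-1*), whereas *dpy-7*, the other marker, was not called in either (-0.40 and 0.44). The germ line sums of *isp-1* (989.7 to 1387 CPM) and *clk-1* worms (949 to 1442 CPM) overlapped the wild type, as did those of *nuo-6* and *daf-2* worms. In *isp-1* worms 3 of 6 sperm markers were called lower (median over the 6 of -0.55), with sums of 94.0 to 155 CPM, against 125 to 234 CPM in wild-type worms. The pharyngeal myosin gene *myo-2* was lower in *isp-1* (-0.60, adjusted p = 0.0071) and *daf-2* worms (-0.61, adjusted p = 0.0037). The part of these differences in the results was not tested.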

How the data were processed

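RNA sequencing of 51 libraries was used, 39 of the main experiment and 12 of the *sod-2* experiment. Libraries were assigned to strains by their titles. The authors aligned reads to WBcel235 with STAR 2.5.2b, counted them with its GeneCounts option and normalized them with edgeR 3.20.1. Which strand column was counted is not given in the sources used here. The deposited signal is CPM on effective library sizes, on genes kept by a filter that the sources used here do not state. In 99.97% to 100% of genes per library it is a whole multiple of 1 read (tolerance 0.05), so reads were recovered. An earlier deposited table of the 12 libraries is named CPM but holds whole-number counts, so edgeR was used on it.

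Mutant and wild-type libraries of an experiment were compared on log2(CPM + 0.5) with limma 3.58.1 (R 4.3.3; moderated two-sided tests from eBayes with a mean-variance trend), all 39 libraries in 1 fit and the 12 in another, with Benjamini-Hochberg adjustment over 14033 or 14596 genes and a threshold of 0.05. The tests set each difference against a moderated spread between libraries for that gene, shared by all strains of the fit. They do not use the spread of each strain alone. The scripts were tested on simulated data. edgeR 4.0.16 and DESeq2 1.42.0 on recovered reads, other pseudocounts and filters, and leaving out libraries were alternatives. All 8 genes are named in every comparison. From the related lists, at most the 5 genes with the largest fold change among those called in a mitochondrial mutant are named, with the mutated gene of each strain and, for *hsp-6* and *hsp-60*, the 5 genes of at least 1 CPM that correlated best with each. *hsp-1*, *hsp-4*, *col-19*, *dpy-7*, *myo-2* and C30H6.9 were chosen after their values were seen, as were the limits that define the 229 genes. The same holds for *vit-2*, *cbd-1*, *rme-2*, *chs-1*, *egg-1* and *puf-5*, and for *pgl-1*, *him-3*, *glp-1*, *gld-1*, *haf-2*, *haf-6* and *haf-7*. *gpd-2* is named because the paper names it. The 8 genes and the lists were chosen with earlier results of these data known. *trap-1* was taken off the list of mitochondrial chaperones after the values were seen, because the files annotate it as a translocon protein. Exon lengths and positions are from an Ensembl annotation of WBcel235, the build of the alignment. Depth and precision: 52 reads is the lowest count behind a value of the 8 genes, and counting error covers only part of the spread between libraries.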

Additional observations from a re-analysis of the deposited data

Results flagged for a closer look

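Within groups of 6 libraries, 4 of 56 sets of values held a library far from the others by Dixon's test at 95%, where chance alone would mark about 2.8. The highest *hsp-6* of the wild type was replicate 9 at 1065 CPM, with the others at 663 to 798 CPM, and in the *sod-2* experiment it was wild-type replicate 4 at 1050 CPM, with the others at 677 to 797 CPM. Of the 6 wild-type libraries of the *sod-2* experiment, replicate 4 was also the one that replicate 9 correlated with most closely (r = 0.993). The highest *dve-1* of the wild type was replicate 10 at 43.3 CPM, with the others at 25.2 to 30.5 CPM. The highest *ubl-5* in *nuo-6* worms was replicate 3 at 23.5 CPM, with the others at 13.8 to 17.4 CPM.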

How the results depend on the processing

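Of the 18 calls, the same 18 were made in the same direction with a pseudocount of 0.1 or 2, with genes of at least 1 CPM, by edgeR and by DESeq2. Centring each library on its median lost 1 call (*dve-1* in *daf-2* worms, adjusted p = 0.074), and fitting each mutant of the main experiment alone with the wild type kept 15 of 17, lost that call and *lonp-1* in *sod-1* libraries (0 calls left there) and gained 1 (*atfs-1* in *isp-1* worms, adjusted p = 0.022). At an adjusted p of 0.01, 12 of 18 calls were left, with 1 in *daf-2*, 1 in *prdx-2*, 0 in *sod-1* and 0 in *sod-2* worms. With an added log2 fold change of at least 1, 1 call was left, *haf-1* in *nuo-6* worms, and there were 0 in *clk-1*, *isp-1*, *daf-2*, *sod-1*, *prdx-2* and *sod-2* worms. On the earlier counts of the *sod-2* experiment no gene was called, with edgeR or with limma (0 and 0). The limma fit of that table was added after seeing the data and gave *haf-1* 0.63 (adjusted p = 0.071). No called gene changed direction under any of these alternatives.

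Leaving out 1 library at a time kept 15 of 18 calls throughout. Calls numbered 3 to 3 in *clk-1*, 3 to 3 in *isp-1*, 5 to 5 in *nuo-6*, 2 to 3 in *daf-2*, 0 to 1 in *sod-1*, 0 to 1 in *ctl-1*, 1 to 2 in *prdx-2* and 1 to 1 in *sod-2* worms. The 1 in *ctl-1* was *hsp-60* without wild-type replicate 12 (adjusted p = 0.049). Of the 42 contrasts of *hsp-6* and *hsp-60* between mutants, 20 passed, and 17 to 21 without 1 library.

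The replicate numbers do not pair the samples. Same-numbered *sod-2* and wild-type libraries deviated together with r of -0.14 to 0.73, above 0.1 in 4 of 6 pairs, and 1 of 6 correlated best with its own number. With a replicate block, *haf-1* was still the 1 gene called in *sod-2* worms (0.74, adjusted p = 0.019), and 17 contrasts between mutants passed, against 20 for the same libraries without it. Wild-type numbers of the main experiment match no mutant's. Depth limits *haf-1* most.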
